A study of Mus musculus with 9 samples.

Results

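Respiratory complex I is described here through the nuclear genes whose symbols begin with Ndufa, Ndufb, Ndufc, Ndufs or Ndufv. The deposited expression table held 39 such symbols among 22036 genes, and 37 of them reached a value of 3.32, log2 of 10, in at least 3 libraries, as did 14955 genes of the whole table. RNA sequencing was done on brain microglia of wild-type female C57BL/6 mice in 3 old libraries (23 months), 3 middle-aged libraries (15 months) and 3 young libraries (6 months). Each library held RNA pooled from 3 mice, so p-values measure the spread between pools. The cells were sorted by flow cytometry, with a gate that the sources do not state, and in bulk RNA fewer cells of a type and less RNA per cell cannot be told apart.

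Complex I is the largest enzyme of the mitochondrial respiratory chain: it takes electrons from NADH, passes them along iron-sulfur clusters to ubiquinone and pumps protons across the inner membrane. Catalysis is done by a core of conserved subunits, some encoded in the nucleus and some by mitochondrial DNA, and a larger shell of accessory subunits surrounds them and is needed for assembly and stability. Microglia are brain-resident macrophages in which the balance between respiration and glycolysis is known to shift with activation. The members comprised 7 core subunits, 29 accessory ones and Ndufa4, which is a member by symbol only, since its protein is now assigned to cytochrome c oxidase. By position in the mammalian enzyme, 8 belong to the NADH-oxidising module, 8 to the ubiquinone module, 8 to the proximal and 12 to the distal part of the membrane arm. The genes lie on 16 chromosomes, with 2 on the X chromosome. Ndufa13 and the subunits encoded by mitochondrial DNA were not analysed here.

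Promoter sequence was matched in RefSeq (GRCm38.p6) for 33 of the 37 members, as 300 bases from 250 before to 50 after the annotated start. It was searched because genes of the respiratory chain are known targets of nuclear respiratory factor 1 (NRF1), ETS factors and YY1. The NRF1 letters GCGCA and GCGC, 1 base apart and read on both strands, were found in 7 of the 33, or 21.2%, against 5.2% of 27025 genes. The YY1 letters AAGATGGC, on either strand, were also found in 7, or 21.2%, against 3.2% of the 27025. That background is every gene with a promoter sequence, not the genes tested here, and was not matched to the members' expression. An ETS motif, CCGGAAG, was found in 4 members, or 12.1% against 9.9%, and the TATA box letters TATAAA in 4, or 12.1% against 15.7%. Ndufs6 held both an NRF1 and a YY1 match, and no matches of different motifs overlapped. The NRF1 matches nearest the start are shown with 10 bases on each side, on the gene's strand, 5′ to 3′, with the match in capitals. Every match begins and ends with GCGC, while its middle bases and the flanks vary:
Ndufa11 (chr17:56717692-56717721, plus strand): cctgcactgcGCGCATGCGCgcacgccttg
Ndufa5 (chr6:24527697-24527726, minus strand): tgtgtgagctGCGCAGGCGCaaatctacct
Ndufa6 (chr15:82354249-82354278, minus strand): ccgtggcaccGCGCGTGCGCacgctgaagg
Ndufa8 (chr2:36049349-36049378, minus strand): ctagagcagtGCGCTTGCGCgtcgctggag
Ndufb4 (chr16:37654371-37654400, minus strand): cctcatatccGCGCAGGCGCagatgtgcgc
Ndufs5 (chr4:123718265-123718294, minus strand): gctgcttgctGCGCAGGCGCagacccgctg
Ndufs6 (chr13:73328479-73328508, minus strand): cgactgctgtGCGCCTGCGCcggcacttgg

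The NRF1 match nearest the start in each gene lay between base -98, in Ndufs5, and base 24, in Ndufa6. The YY1 matches were more uniform. All 7 read AAGATGGC on the gene's own strand and began between base 23 and base 39 after the annotated start. They are shown with 4 bases on each side:
Ndufa3 (chr7:3617391-3617406, plus strand): gaacAAGATGGCcggg
Ndufa9 (chr6:126849104-126849119, minus strand): ggagAAGATGGCggcc
Ndufb8 (chr19:44555393-44555408, minus strand): ggtgAAGATGGCtgcc
Ndufc1 (chr3:51408922-51408937, minus strand): gaacAAGATGGCgccg
Ndufs4 (chr13:114388048-114388063, minus strand): caggAAGATGGCggcg
Ndufs6 (chr13:73328438-73328453, minus strand): cggcAAGATGGCggcg
Ndufs7 (chr10:80249469-80249484, plus strand): ggccAAGATGGCggcg

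A match of letters is a description and not a binding site. Members with an NRF1 match had log2 changes in old against young libraries between 0.02 (Ndufb4) and 0.35 (Ndufa6), and those with a YY1 match between -0.07 (Ndufa9) and 0.45 (Ndufc1). These genes are part of the members, so both ranges must lie inside that of all members, -0.13 to 0.53. Members with and without a match were not tested against each other.

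Complex I messages were abundant. The mean value of a member over the 9 libraries lay between 7.48 and 12.84 on the log2 scale, with a median of 11.48, against a median of 9.33 over all genes tested. Per kilobase of transcript, the median member stood at 3220 normalized counts. The highest were Ndufa7, at 9077 normalized counts per kilobase, Ndufa3, at 7683, and Ndufa6, at 7681. Ndufa3 is a membrane-arm subunit, and Ndufa6 a protein of the LYR family that docks the acyl carrier protein. The lowest were Ndufab1, that acyl carrier protein, at 138 normalized counts per kilobase, Ndufb4 at 184.1 and Ndufb2 at 603.9. Near-identical processed pseudogenes exist for Ndufab1 (99.8% identical) and Ndufb4 (100%), so reads could be split and both levels are uncertain; no copy was found for Ndufb2. A copy at 95% identity or more was also found for Ndufa12, Ndufs3, Ndufs5, Ndufs6, Ndufb3 and Ndufb11. Ndufb5, Ndufb6 and Ndufb9 overlap another gene, which makes their values uncertain in the same way. The 2 symbols below the filter were Ndufa4l2, a paralogue of Ndufa4, and Ndufa11b, a processed pseudogene in GENCODE M21. Both stayed just under the filter, with means between 3.00 and 3.09 at every age.

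The old libraries differed from one another more than those of the other ages did. The median deviation of the members from the young mean was 0.245, 0.064 and 0.280 in old replicates 1, 2 and 3, and 0.148, 0.185 and 0.128 in the middle-aged ones, against 0.023, 0.001 and -0.043 in the young ones. Old replicate 2 was the lowest old library in 29 of 37 members, and old replicate 3 the highest in 23. The median SD of the members was 0.156 in old, 0.066 in middle-aged and 0.063 in young libraries, where all genes tested had 0.128, 0.107 and 0.075. Old replicate 3 also stood apart on the first principal component of all genes (34.7% of the variance), at -29.85 against -5.90 to 14.43 in the other 8.

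At 23 months most complex I messages stood slightly higher than at 6 months, although no single gene passed the test. The median log2 change of the 37 members in old against young libraries was 0.22, against -0.01 over all genes tested. Of the 37, 32 (86.5%) were above 0, against 47.4% of all genes. Without old replicate 3 the members' median was 0.14, and without old replicate 2 it was 0.30. Ndufa1, Ndufc1, Ndufb1-ps, Ndufv2 and Ndufa6 had the 5 largest values, between 0.35 and 0.53, and Ndufs1, the subunit with the longest transcript, had the lowest, -0.13. The distal membrane arm was above 0 in 12 of 12 members and the proximal membrane arm in 8 of 8. These genes share libraries, so their signs are not independent. The catalytic core had a median of 0.07 and the accessory subunits one of 0.24, a difference between lists that was not tested.

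By limma's moderated test with Benjamini-Hochberg adjustment over all 14955 genes, 0 of 37 members were called in old against young libraries, where 2.00% of all genes were called. At an unadjusted p under 0.05, 16 members (43.2%) were higher, against 9.07% of all genes, and 0 were lower, against 7.69%. In 16 members the old libraries lay above the young ones without overlap, which 12.2% of all genes did, and in 0 members below them, which 12.3% did. With array weights, which gave young replicate 3 a weight of 3.99 and old replicate 3 one of 0.24, limma called 11 members (29.7%), against 10.8% of all genes in that fit. Without old replicate 2 limma called 3 members (8.11%), against 2.06% of all genes. The authors' deposited table for the same comparison gave 5 members (13.5%) as higher at an adjusted p under 0.05, against 4.72% of its 16152 genes, and 0 as lower, against 2.90%. Those 5 were Ndufa1, Ndufa6, Ndufb1-ps (Ndufb1 in RefSeq), Ndufb5 and Ndufc1. GENCODE M21 types the Ndufb1-ps entry as a non-coding RNA of a bidirectional promoter, and it is counted here with the distal membrane arm. The members were chosen with results of these data in view, so these counts are a description beside the background. That background was not matched to the members' short transcripts, and counts for short genes are given below.

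Marker genes of cell types also differed in level between the ages. Of 10 microglia markers 7 were analysed, and all 7 passed the filter. Their summed level was 1131000 to 1371000 normalized counts in old and 1212000 to 1399000 in middle-aged libraries, against 1466000 to 1685000 in young ones, with a median log2 change of -0.31 in old against young libraries and 2 called by limma. The 8 monocyte markers, all detected, summed to 56260 to 76860 in old and 53980 to 91740 in middle-aged libraries, against 53080 to 65080 in young ones, with a median log2 change of 0.32 in old against young libraries and 2 called by limma. The 8 border macrophage markers had a median of -0.48 in the same comparison, and the 11 neutrophil markers one of -0.07, with sums of 214000 to 487100 in old, 429900 to 980200 in middle-aged and 263100 to 488600 in young libraries. The 8 T and NK cell markers, all above the filter, summed to 1636 to 2131 in old and 1384 to 1792 in middle-aged libraries, against 1303 to 1528 in young ones, with a median of 0.27 in old against young libraries and 1 called by limma. Of 7 neuron markers, Rbfox3, Gad1 and Slc17a7 were below the filter. Old replicate 2, the lowest old library for most complex I genes, had the highest monocyte sum of the old, 76860. Old replicate 3 had the lowest microglia sum of the old, 1131000, and their highest neutrophil and T and NK cell sums, 487100 and 2131. The part of these cells in the complex I values was not tested.

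**Figure D1:**
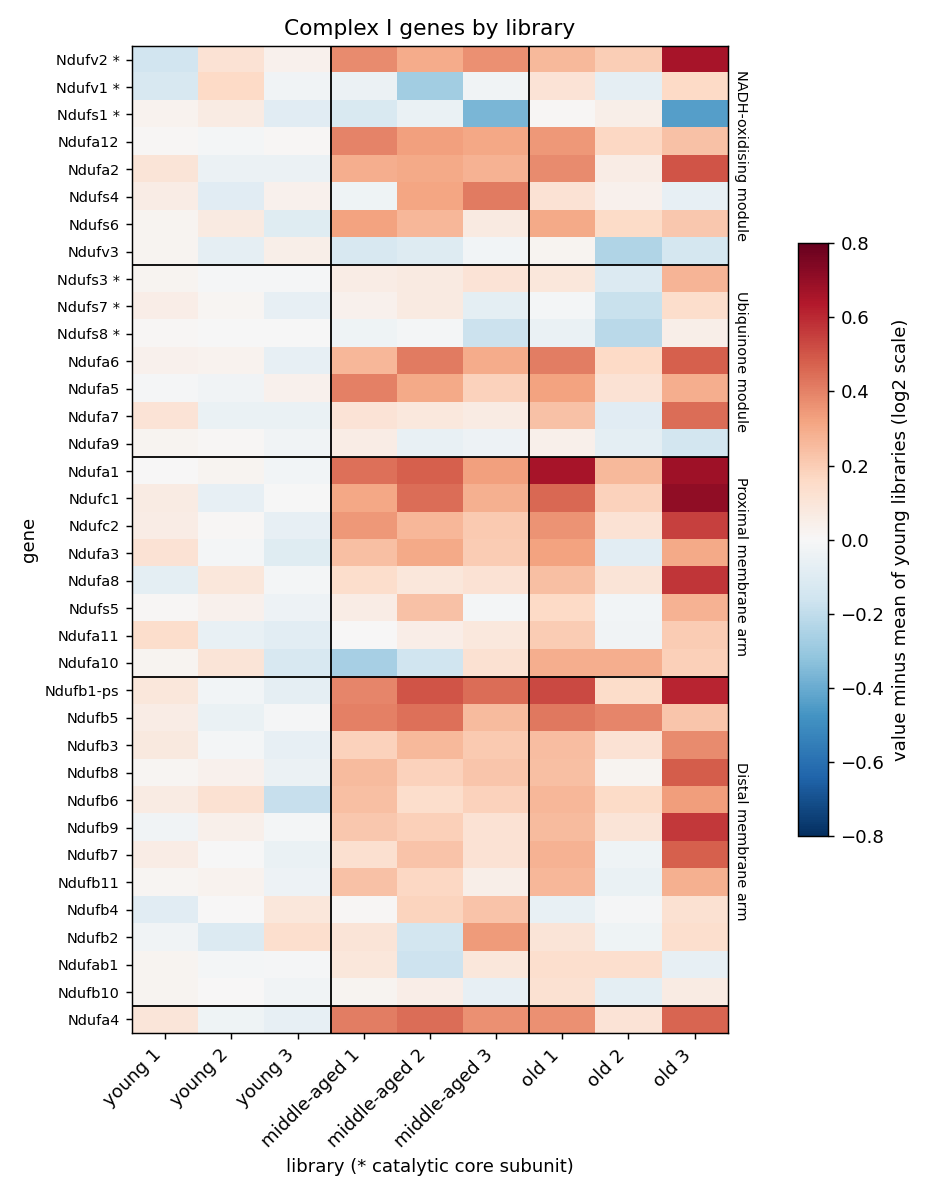
Each row is 1 of 36 complex I genes, grouped by its place in the enzyme (Ndufa4 at the bottom), and each column 1 library. Colour gives the value minus the mean of the young libraries on the log2 scale. Red prevails in the middle-aged and old columns of the membrane-arm blocks, old replicate 2 is paler than its neighbours, and most core subunits (asterisks) stay near white.

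Ndufa1, an X-linked membrane subunit needed for assembly of the enzyme, came closest to the threshold. It lies on chromosome X from base 37187588 to 37191163 (GRCm38, minus strand). Its log2-scale values were 11.38, 10.98 and 11.40 in old libraries and 11.16, 11.20 and 11.05 in middle-aged libraries, against 10.72, 10.74 and 10.70 in young libraries. All 6 later libraries stood above all young ones, and the old ones spread most. In old against young libraries the log2 change was 0.53 ± 0.12 (SE), a 1.44-fold difference, with an adjusted p of 0.0531 in limma's moderated test with Benjamini-Hochberg adjustment. Over 21 alternative settings of the limma fit that adjusted p ranged from 0.00292 to 0.223. Without old replicate 2 the log2 change of Ndufa1 was 0.67 and its adjusted p 0.0114. The authors' deposited table gave a log2 fold change of 0.70 ± 0.18 (SE) with an adjusted p of 0.00244.

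Ndufc1 is a small membrane-spanning accessory subunit (chromosome 3, 51404677 to 51408988, minus strand). It had 11.01, 10.74 and 11.26 in old libraries and 10.86, 11.00 and 10.84 in middle-aged libraries, against 10.62, 10.49 and 10.55 in young libraries. Neither later age overlapped the young one. The log2 change in old against young libraries was 0.45 ± 0.13 (SE), with a limma adjusted p of 0.110, and the authors' deposited table gave 0.60 ± 0.19 (SE) with an adjusted p of 0.0284.

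Ndufb5, of the distal membrane arm (chromosome 3, 32736990 to 32751566, plus strand), varied least among the old libraries of these 3 genes. Its values were 11.74, 11.71 and 11.54 in old libraries and 11.72, 11.76 and 11.57 in middle-aged libraries, against 11.38, 11.27 and 11.31 in young libraries. The later ages covered nearly the same range. The log2 change was 0.34 ± 0.10 (SE) in old against young libraries, with a limma adjusted p of 0.106, and the authors' deposited table gave 0.47 ± 0.14 (SE) with an adjusted p of 0.0124.

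**Figure D2:**
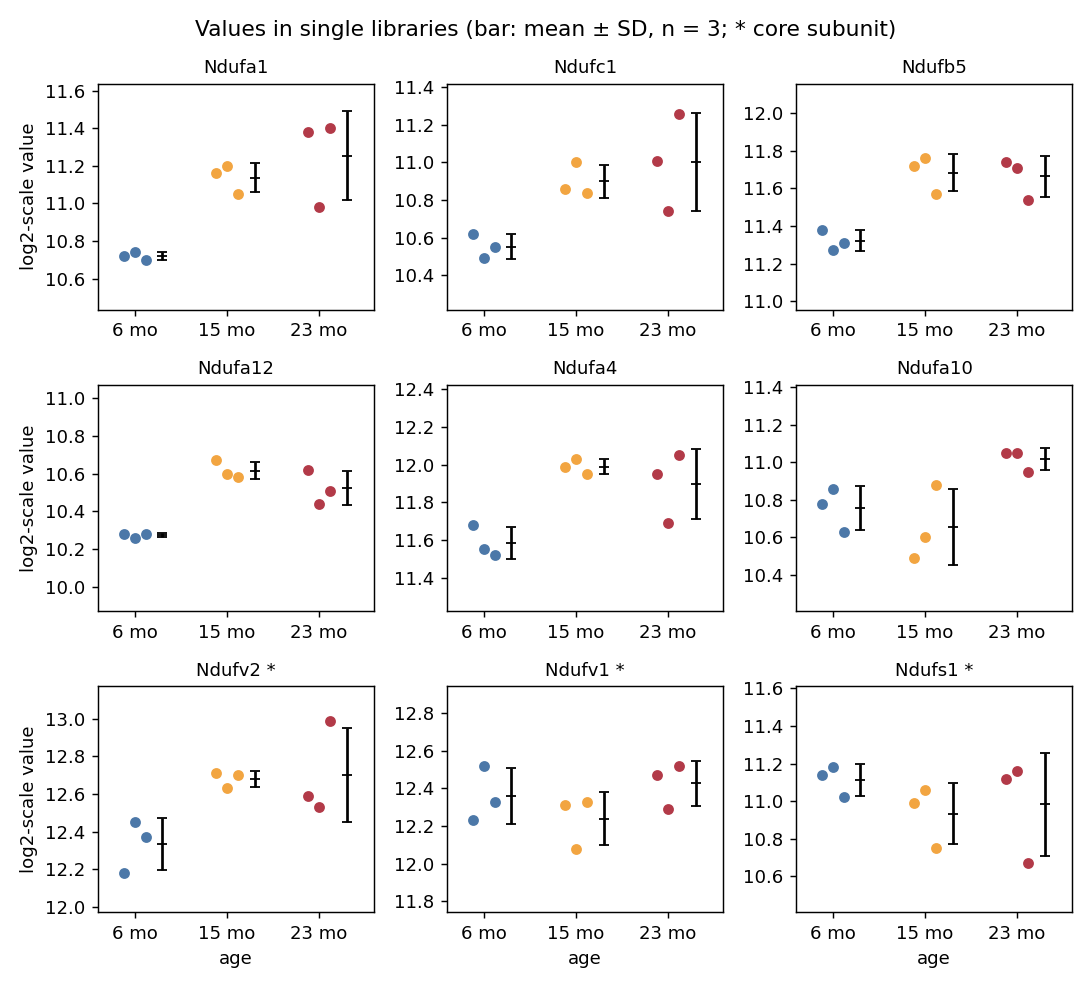
Log2-scale values of 9 complex I genes in single libraries by age in months (points), with the mean and SD of 3 libraries (bars); every panel spans the same range, and core subunits carry an asterisk. Ndufa1, Ndufc1, Ndufb5, Ndufa12, Ndufa4 and Ndufv2 stand higher at 15 and 23 months than at 6 months without overlap, Ndufa10 stands apart at 23 months, and Ndufv1 and Ndufs1 overlap at all 3 ages.

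By 15 months the difference was already present in the values. The median log2 change in middle-aged against young libraries was 0.16, against -0.00 over all genes tested, within a range of -0.18 to 0.44 for the members. Of the 37 members, 31 (83.8%) were above 0, against 49.6% of all genes. Limma's test with Benjamini-Hochberg adjustment called 0 of 37, where 0.114% of all genes were called. With array weights it called 5 (13.5%), against 2.09% of all genes. At an unadjusted p under 0.05, 11 members (29.7%) were higher, against 6.21% of all genes, and 0 were lower, against 5.15%. The libraries did not overlap in 19 members (51.4%) with the middle-aged ones higher, against 11.6% of all genes. They did not overlap in 1 member with the middle-aged ones lower, the core subunit Ndufs8, against 1498 of the 14955 genes. The authors' deposited table gave 11 members (29.7%) as higher, against 3.26% of its genes, and 0 as lower, against 2.53%. The 11 were Ndufa1, Ndufa2, Ndufa4, Ndufa5, Ndufa6, Ndufa12, Ndufb1-ps, Ndufb5, Ndufc1, Ndufc2 and Ndufv2. This comparison shares the young libraries with the one before it, so the 2 are not independent.

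Ndufa12, an accessory subunit of the NADH-oxidising module (chromosome 10, 94198720 to 94221443, plus strand), had the smallest p in middle-aged against young libraries. It had 10.62, 10.44 and 10.51 in old libraries and 10.67, 10.60 and 10.58 in middle-aged libraries, against 10.28, 10.26 and 10.28 in young libraries. The young libraries were nearly equal, and every later library stood above them. The log2 change in middle-aged against young libraries was 0.35 ± 0.09 (SE), a 1.27-fold difference, with a limma adjusted p of 0.202. In the authors' deposited table it was 0.52 ± 0.12 (SE), with an adjusted p of 0.000812. A pseudogene, Gm15920, is 99.5% identical to the Ndufa12 transcript, so its reads cannot be fully assigned.

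Ndufa4, now placed in cytochrome c oxidase (chromosome 6, 11900292 to 11907497, minus strand), followed the same course. Its values were 11.95, 11.69 and 12.05 in old libraries and 11.99, 12.03 and 11.95 in middle-aged libraries, against 11.68, 11.55 and 11.52 in young libraries. The lowest old library lay just above the highest young one. Its log2 change in middle-aged against young libraries was 0.41 ± 0.11 (SE), with a limma adjusted p of 0.205, and that of Ndufb5 was 0.37 ± 0.10 (SE), also with 0.205.

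**Figure D3:**
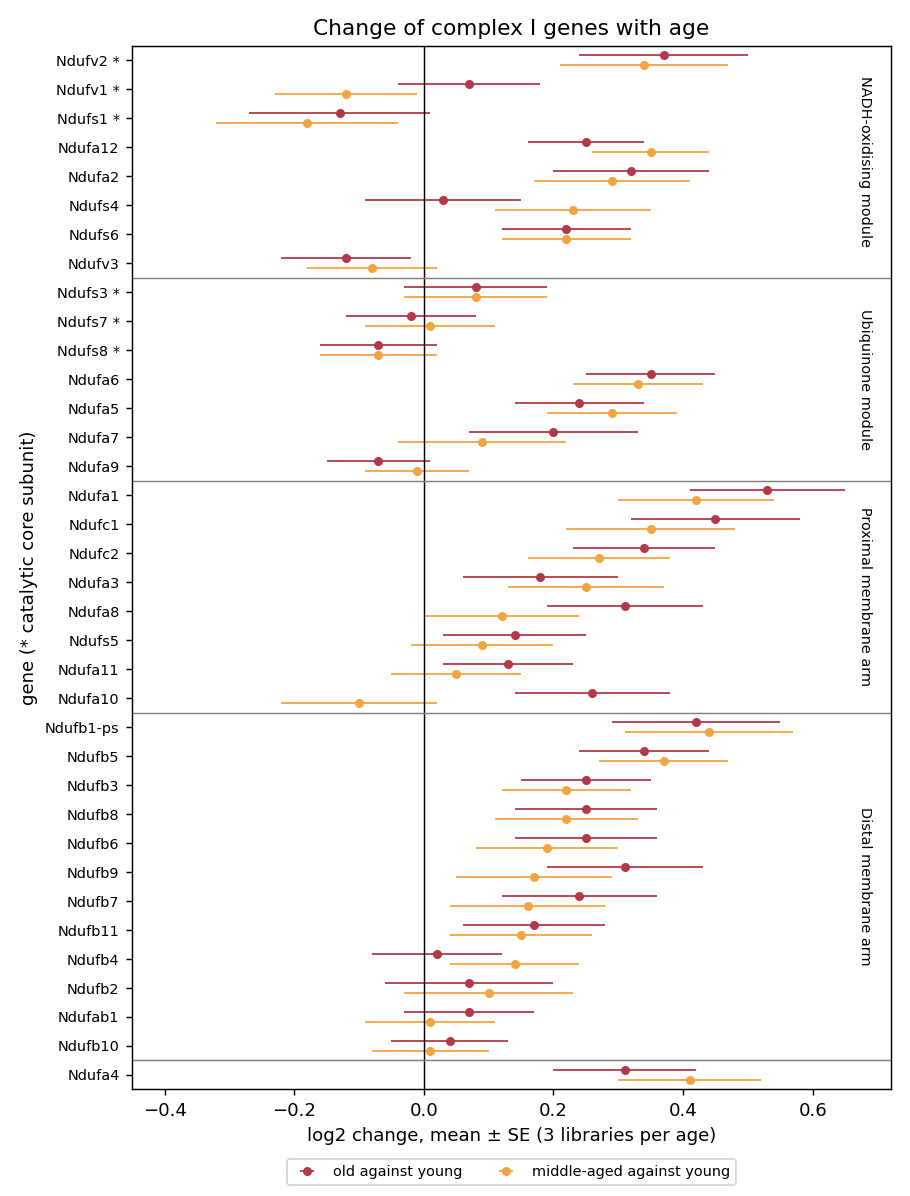
Log2 change of 36 complex I genes in old against young libraries (dark red) and middle-aged against young libraries (orange), with standard errors from the fit to all 9 libraries; the vertical line marks 0. Points of the membrane arm lie to the right of 0, apart from Ndufa10 in middle-aged against young libraries, while those of the core subunits, Ndufv2 excepted, lie between -0.18 and 0.08.

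From 15 to 23 months complex I messages had similar values. The median log2 change in old against middle-aged libraries was 0.03, against -0.00 over all genes. Above 0 were 22 of 37 members (59.5%), against 48.4% of all genes. Limma called 0 members after adjustment (0.174% of all genes were called), and in the authors' deposited table none was higher, that is 0 of 37 (0.859% of its genes). Of the 37 members, 1 was higher at an unadjusted p under 0.05 (5.42% of all genes), and the same gene, Ndufa10, was the 1 member with old libraries above middle-aged ones without overlap (6.47%).

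Ndufa10, a subunit with a nucleoside kinase fold in the matrix part of the proximal arm (chromosome 1, 92439010 to 92473860, minus strand), had 11.05, 11.05 and 10.95 in old libraries. It had 10.49, 10.60 and 10.88 in middle-aged libraries and 10.78, 10.86 and 10.63 in young libraries. The old libraries stood above all 6 others, and the other ages overlapped. The log2 change in old against middle-aged libraries was 0.36 ± 0.12 (SE), with a limma adjusted p of 0.341. Next by p were the core subunit Ndufv1, at 0.19 ± 0.11 (SE) with a limma adjusted p of 0.612, and Ndufs4, at -0.20 ± 0.12 (SE) with 0.618. Loss of Ndufs4, which stabilises the NADH-oxidising module, is known to cause an encephalopathy in mice. Its values were 11.51, 11.43 and 11.33 in old libraries, 11.36, 11.71 and 11.81 in middle-aged libraries and 11.45, 11.30 and 11.43 in young libraries, so all ages overlapped.

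The limma F test over the 3 ages called 0 of 37 members, where 0.836% of all genes were called, and 12 members (32.4%) had an unadjusted p under 0.05, against 15.3% of all genes. The difference between the steps, old minus middle-aged against middle-aged minus young, was called for 0 members and for 0.00% of all genes. At an unadjusted p under 0.05 it was below 0 in 3 members, Ndufa12, Ndufa4 and Ndufb5, against 4.17% of all genes, and above 0 in 1, Ndufa10, against 3.72%. For these 3 the estimates were -0.44 ± 0.16, -0.51 ± 0.19 and -0.39 ± 0.17 (SE), with limma adjusted p-values of 0.51, 0.54 and 0.613.

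Member by member, 13 genes had libraries of both later ages above the young ones without overlap (35.1%), against 5.53% of all genes. They were Ndufa1, Ndufa4, Ndufa5, Ndufa6, Ndufa12, Ndufb1-ps, Ndufb3, Ndufb5, Ndufb6, Ndufb9, Ndufc1, Ndufc2 and Ndufv2. Another 6 did so at 15 months only (16.2%), against 6.07% of all genes, namely Ndufa2, Ndufa3, Ndufb7, Ndufb8, Ndufb11 and Ndufs3. At 23 months only, 3 did so (8.11%), against 6.69% of all genes, namely Ndufa8, Ndufa10 and Ndufs6. The remaining 15 showed neither, and they included the core subunits Ndufs1, Ndufs7, Ndufs8 and Ndufv1. They also included Ndufa7, Ndufa9, Ndufa11, Ndufab1, Ndufb2, Ndufb4, Ndufb10, Ndufs4, Ndufs5 and Ndufv3. The mean was lowest at 6 months for 30 members, and highest at 23 months for 21, at 15 months for 12 and at 6 months for 4.

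Of the 7 core subunits, which carry the flavin, the iron-sulfur clusters and the quinone site, 1 was clear of the young libraries at both later ages. This was Ndufv2, an iron-sulfur subunit of the NADH-oxidising tip, with 12.59, 12.53 and 12.99 in old libraries and 12.71, 12.63 and 12.70 in middle-aged libraries, against 12.18, 12.45 and 12.37 in young libraries. Every later library stood above the highest young one. The log2 change was 0.37 ± 0.13 (SE) in old against young libraries, with a limma adjusted p of 0.179, and 0.34 ± 0.13 (SE) in middle-aged against young libraries, with one of 0.326.

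Its partners in electron entry showed no such separation. Ndufv1, which binds NADH and the flavin, had 12.47, 12.29 and 12.52 in old libraries and 12.31, 12.08 and 12.33 in middle-aged libraries, against 12.23, 12.52 and 12.33 in young libraries. For Ndufs1, which holds several of the iron-sulfur clusters, the values were 11.12, 11.16 and 10.67 in old libraries and 10.99, 11.06 and 10.75 in middle-aged libraries, against 11.14, 11.18 and 11.02 in young libraries. In both genes the ages overlapped. The log2 change of Ndufv1 in old against young libraries was 0.07 ± 0.11 (SE) and that of Ndufs1 -0.13 ± 0.14 (SE), with limma adjusted p-values of 0.798 and 0.676. Without old replicate 3, the lowest library for Ndufs1, its old values lay within the young range.

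Ndufs7, Ndufs3 and Ndufs8 are core subunits of the ubiquinone module. Ndufs7, which carries the last cluster of the chain, had 12.45, 12.29 and 12.61 in old libraries and 12.50, 12.54 and 12.39 in middle-aged libraries, against 12.52, 12.48 and 12.40 in young libraries. The ages overlapped. Ndufs3, a scaffold of early assembly, had 10.85, 10.65 and 11.03 in old libraries and 10.82, 10.83 and 10.87 in middle-aged libraries, against 10.78, 10.75 and 10.75 in young libraries. Ndufs8, another iron-sulfur subunit, had 12.74, 12.58 and 12.84 in old libraries and 12.76, 12.78 and 12.62 in middle-aged libraries, against 12.80, 12.79 and 12.79 in young libraries. In Ndufs3 and Ndufs8 the middle-aged libraries were clear of the young ones and the old ones were not. The log2 change in middle-aged against young libraries was 0.08 ± 0.11 (SE) in Ndufs3 and -0.07 ± 0.09 (SE) in Ndufs8, each no larger than its error. Limma adjusted p-values for these 3 genes in old against young libraries were between 0.733 and 0.948.

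The accessory subunits with the extreme levels per length also differed among themselves. Ndufa6 had 12.33, 12.08 and 12.40 in old libraries and 12.19, 12.34 and 12.22 in middle-aged libraries, against 11.96, 11.95 and 11.86 in young libraries. Ndufa3 had 12.13, 11.72 and 12.11 in old libraries and 12.05, 12.11 and 12.01 in middle-aged libraries, against 11.92, 11.79 and 11.71 in young libraries. Both later ages were clear of the young one for Ndufa6, and the middle-aged one alone for Ndufa3, because old replicate 2 fell inside the young range. In Ndufa7 the old libraries had 12.37, 12.04 and 12.58 and the middle-aged ones 12.24, 12.22 and 12.20, against 12.24, 12.08 and 12.08 in the young ones, with overlap. The log2 change of Ndufa6 in old against young libraries was 0.35 ± 0.10 (SE), with a limma adjusted p of 0.116, and in the authors' deposited table Ndufa6 was called higher at both later ages.

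Among the least abundant, Ndufab1 had 7.72, 7.72 and 7.52 in old libraries and 7.68, 7.42 and 7.68 in middle-aged libraries, against 7.61, 7.57 and 7.58 in young libraries. Ndufb4 had 7.37, 7.42 and 7.55 in old libraries and 7.44, 7.61 and 7.66 in middle-aged libraries, against 7.34, 7.43 and 7.52 in young libraries. Ndufb2 had 8.15, 8.01 and 8.18 in old libraries and 8.15, 7.90 and 8.39 in middle-aged libraries, against 8.02, 7.94 and 8.18 in young libraries. All 3 overlapped between the ages, with log2 changes of 0.07, 0.02 and 0.07 in old against young libraries.

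By module, the median log2 change in old against young libraries was 0.14 in the NADH-oxidising module, 0.08 in the ubiquinone module, 0.29 in the proximal and 0.24 in the distal membrane arm. In middle-aged against young libraries the medians were 0.23, 0.05, 0.18 and 0.16 in the same order of modules. In old against young libraries the NADH-oxidising module held Ndufa2, Ndufa12, Ndufs6 and Ndufv2, with log2 changes of 0.22 to 0.37, and Ndufs1, Ndufs4, Ndufv1 and Ndufv3, with -0.13 to 0.07. The core subunits all lie in the NADH-oxidising and ubiquinone modules. Among accessory subunits alone, the medians in old against young libraries were 0.22, 0.22, 0.29 and 0.24 in the same order of modules. In middle-aged against young libraries they were 0.23, 0.19, 0.18 and 0.16. None of these medians was tested against another.

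Transcript length went weakly with the change from young libraries to either later age. The members had short transcripts, with a median of 758 bases against 2379 for all genes. Across the 37 genes, Spearman's rho between transcript length and log2 change was -0.26 in old against young libraries and -0.35 in middle-aged against young libraries. Across 14922 genes it was -0.21 and -0.16, as a description, since genes share libraries and are not replicates. In old against middle-aged libraries rho was 0.05 across the members and -0.10 across the 14922 genes. The 27 members under 1000 bases had a median of 0.24 in old against young libraries and the 10 longer ones one of 0.08. All genes under 1000 bases had 0.03, with 63.0% above 0, and all longer genes -0.02. At an unadjusted limma p under 0.05, 13 of the 27 were higher, against 377 of 2226 genes under 1000 bases. The authors' deposited table gave 3 of the 27 as higher, against 215 of 2177 such genes. In middle-aged against young libraries 9 of the 27 were higher at that unadjusted p, against 248 of the 2226. There the authors' table gave 9, against 158 of 2183. With transcript length and GC trends removed, the members' median was 0.13 in old against young libraries, with 29 above 0 and 10 higher at an unadjusted p under 0.05 (9.11% of all genes). In middle-aged against young libraries it was also 0.13, with 27 above 0 and 9 higher (6.04%). The part of length in the change was not tested beyond this.

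**Figure D4:**
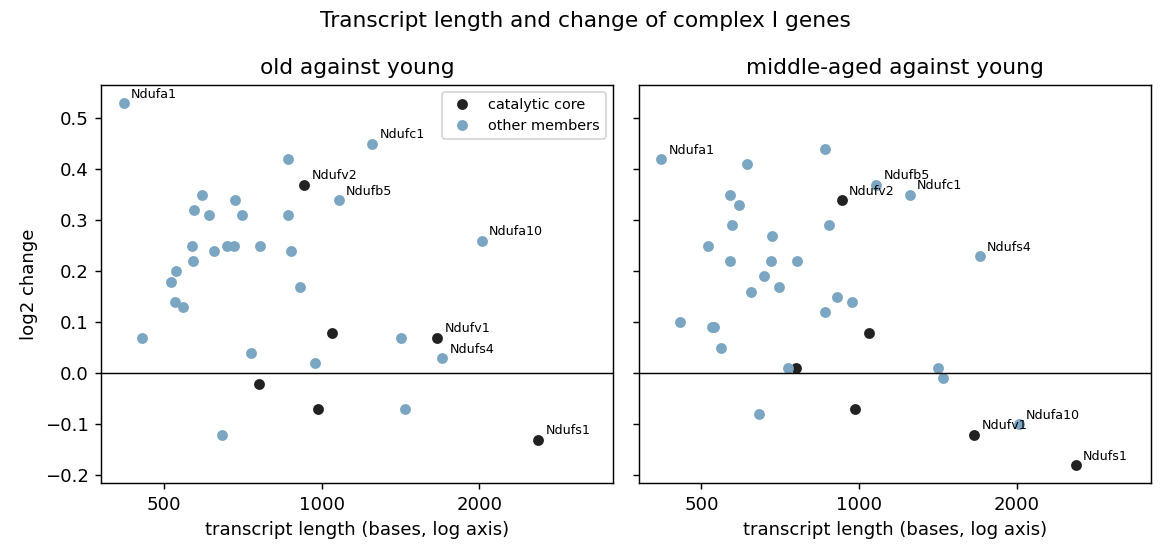
Log2 change of 36 complex I genes against the length of each one's representative GENCODE transcript in bases, on a log axis, for old against young libraries (left) and middle-aged against young libraries (right). Core subunits are dark. Members under 1000 bases reach from -0.12 to 0.53 on the left, and the longest member, Ndufs1, has the lowest value in both panels.

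Assembly factors, which help build the enzyme but do not remain in it, had smaller values. The 8 genes named Ndufaf all passed the filter and 0 were called by limma in any comparison; their median log2 change was 0.06 in old against young and 0.09 in middle-aged against young libraries. The smallest p in old against young libraries was that of Ndufaf6, with means of 7.15 in old, 7.41 in middle-aged and 7.42 in young libraries, a log2 change of -0.27 and an unadjusted p of 0.0177. Of 9 other assembly factors tested, 0 were called by limma. In old against young libraries 1 was higher at an unadjusted p under 0.05, against 9.07% of all genes. Their median log2 change was 0.05 in old against young and 0.00 in middle-aged against young libraries. Acad9, an acyl-CoA dehydrogenase that also serves assembly, had 8.97, 8.80 and 9.01 in old libraries, against 8.37, 8.52 and 8.58 in middle-aged libraries. The young libraries, with 8.74, 8.88 and 8.55, overlapped both later ages. The log2 change of Acad9 was 0.20 in old against young libraries, with a limma adjusted p of 0.419, and -0.23 in middle-aged against young libraries. Old and middle-aged libraries did not overlap, and the log2 change between them was 0.44 ± 0.11 (SE), with a limma adjusted p of 0.235. For Acad9 in the same comparison the authors' deposited table gave 0.63 ± 0.18 (SE), with an adjusted p of 0.0402.

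Other complexes of the chain gave values of similar size. Over 39 subunits of complexes II to V, the median log2 change was 0.28 in old against young and 0.21 in middle-aged against young libraries. Above 0 were 35 and 34 of them, against 47.4% and 49.6% of all genes. Complex IV had the highest median in old against young libraries, 0.42 over 10 subunits, complex V had 0.27 over 16, complex III 0.21 over 9 and complex II, succinate dehydrogenase, -0.04 over 4. Limma called 2 of the 39 in old against young libraries, both higher, where 2.00% of all genes were called. In that comparison 20 were higher at an unadjusted p under 0.05, against 9.07% of all genes. The authors' deposited table gave 12 as higher, against 4.72% of its genes. In middle-aged against young libraries limma called 0, where 0.114% of all genes were called. There 11 were higher at an unadjusted p under 0.05, against 6.21% of all genes. The authors' deposited table gave 9 as higher, against 3.26% of its genes.

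The 2 called by limma were Cox6c of cytochrome c oxidase and Atp5j of ATP synthase. Cox6c had 11.70, 11.50 and 11.80 in old libraries, against 11.27, 11.20 and 11.03 in young libraries, and rose by 0.50 ± 0.11 (SE) on the log2 scale, with a limma adjusted p of 0.0454. Atp5j had 12.41, 12.18 and 12.53 in old libraries, against 11.92, 11.84 and 11.86 in young libraries, and rose by 0.50 ± 0.10 (SE), with a limma adjusted p of 0.0379. The old libraries were clear of the young ones in both.

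The 8 regulators listed for oxidative phosphorylation genes did not stand higher. Their median log2 change was -0.08 in old against young and -0.14 in middle-aged against young libraries. Limma called 0, with 2 lower at an unadjusted p under 0.05 in each comparison, against 7.69% and 5.15% of all genes. The authors' deposited tables gave 2 as lower in old against young libraries, against 2.90% of all their genes. In middle-aged against young libraries they gave 1, against 2.53%. Pprc1, a coactivator of NRF1, had 10.90, 10.73 and 10.92 in old libraries, against 11.41, 11.29 and 11.18 in young libraries, a log2 change of -0.44 ± 0.12 (SE) with a limma adjusted p of 0.0888. Esrra, the oestrogen-related receptor alpha, had a log2 change of -0.29 ± 0.10 (SE), with one of 0.172. For Pprc1 in old against young libraries the authors' deposited table gave -0.61 ± 0.15 (SE), with an adjusted p of 0.00208. For Esrra it gave -0.34 ± 0.20 (SE), with an adjusted p of 0.328. Nrf1 itself had 12.51, 12.46 and 12.90 in old and 12.37, 12.46 and 12.55 in middle-aged libraries, against 12.82, 12.75 and 12.79 in young libraries. The middle-aged Nrf1 values lay below the young ones without overlap, with a log2 change of -0.33 ± 0.12 (SE) and a limma adjusted p of 0.316. The authors' deposited table gave -0.42 ± 0.11 (SE) for Nrf1 in that comparison, with an adjusted p of 0.00459.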

How the data were processed

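Microglia were sorted by flow cytometry and libraries made with a low-input kit, per the labels' protocols. The submitters' processing notes name CASAVA, cutadapt 1.13, STAR 2.5.3, DESeq2 1.16.1 and the mm10 build. What each tool did, the read counter, strand use and annotation are not stated there.

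The authors' deposited per-library values are on a log2 scale of normalized counts, from -2.14 to 20.05; the sources do not state the transformation, and log2 changes from it were smaller than the authors' for the members their tables call. The authors' deposited comparison tables give a mean signal per gene, a log2 fold change, a test score and p-values, per the file headers. Read totals are unknown, so depth is unknown and no intervals from counting were computed.

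Genes at 3.32 or more in at least 3 of 9 libraries were tested: 14955 of 22036. Limma 3.58.1 fitted 1 linear model of age, in 3 groups, to all 9 libraries under R 4.3.3 with a variance trend (6 residual and 4.57 prior degrees of freedom), and its two-sided moderated tests were adjusted by Benjamini-Hochberg over all genes at 0.05. An exact permutation test of 3 against 3 cannot go below 0.1. The fit was tested on simulated data. "Higher" or "lower without overlap" means every library of 1 age beyond every library of the other. Lengths and coordinates are from GENCODE M21 (GRCm38), copies from BLAST 2.17.0 at 95% identity over 200 bases, and normalized counts per kilobase are 2 to the power of the log2 value over transcript length. Genes given singly were the 3 with the smallest p per comparison, the core subunits, the 3 highest and 3 lowest per length, and in other lists those called or with the 2 smallest p. A member is counted but is not reported singly here. The members and lists were chosen with earlier results of these data known. The labels state no pairing of libraries by replicate number, and the main fit used none. Figures were drawn with matplotlib 3.10.9.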

Additional observations from a re-analysis of the deposited data

How the results depend on the processing

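Complex I members called in old against young libraries numbered 0, and became 1 with a filter at log2 of 40 or without a variance trend, 11 with array weights and 5 in the authors' deposited table; leaving out 1 library gave 0 to 3, with 3 (Ndufa1, Ndufc1 and Ndufb1-ps) without old replicate 2. In middle-aged against young libraries the 0 became 5 with array weights and 11 in the authors' table, and stayed 0 whichever library was left out. For the F test it became 9 with array weights, and 0 to 1 with 1 library left out. The share of all genes called in those F test fits is not given here, so these counts lack a background. In old against young libraries array weights took the share of all genes called from 2.00% to 10.8%. Array weights gave young replicate 3 a weight of 3.99 and old replicate 3 one of 0.24. The median in old against young libraries, 0.22, was 0.13 with length and GC trends removed and 0.30 in the authors' table, and 0.14 to 0.30 with 1 library left out. The medians for middle-aged against young and old against middle-aged libraries were 0.16 to 0.18 and -0.04 to 0.10 with 1 library left out. The cause of these shifts was not tested. Some values near 0 that were not called changed sign: the old against middle-aged median of 0.03 was -0.04 without old replicate 3 and -0.01 with length and GC trends removed, and Ndufs1 in old against young libraries, -0.13, was 0.02 with array weights or without old replicate 3. The replicate block called 0 members in each comparison; deviations of same-numbered libraries correlated between -0.242 and 0.234. Unknown depth and 3 pools per age limit what small changes can be called.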
